A study of Komagataella pastoris with 12 samples.

Results

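Of the 5080 transcripts measured in the parent and the thermotolerant strain G14 of *Komagataella phaffii*, 6 genes listed for very large decreases in G14 were examined together. They were PAS_chr4_0080, PAS_chr2-2_0482, PAS_chr3_0486, PAS_chr1-4_0145, PAS_chr2-1_0748 and PAS_chr2-1_0353. They were chosen by their FPKM in G14 against the parent, so their differences between the strains are given as a description and without a test. They are not simply the 6 largest falls. In comparison group G14_30 vs. Parent_30, 34 other transcripts fell further than the least lowered of the 6 genes, and in G14_37 vs. Parent_37 81 others did.

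*K. phaffii* is a methylotrophic yeast used to produce recombinant proteins, and the series labels its samples with the species name *Komagataella pastoris*. The parent was a recombinant derivative of strain GS115 that carries a gene for a secreted lipase, and both strains carry it. G14 is 1 isolate obtained from that parent by plasma mutagenesis and stepwise adaptation to rising temperature, so any difference from the parent belongs to this isolate. Both strains were grown in YPD to the logarithmic phase at 30 or 37 °C, with 3 biological replicates in each of the groups Parent_30, Parent_37, G14_30 and G14_37. The 12 libraries held between 13428637 and 22047040 fragments on genes. G14_37 replicate 1 stood apart from the other libraries of its group for some of the genes, and results that rest on it are also given without it.

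Levels are FPKM, in which fragments are divided by the length of the gene, so levels of different genes can be compared per length. Fold changes are differences of mean log2(FPKM + 1), fitted by limma in 1 model of the 4 groups with 8 residual degrees of freedom. Calls needed both an adjusted p under 0.05, by the Benjamini-Hochberg method over the whole table of 5080 transcripts, and a log2 fold change above 1 or below -1.

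Little is known of these genes by name. The deposited table describes 5 of the 6 as hypothetical proteins, a description that 1608 of the 5080 transcripts (31.7%) share. The exception is PAS_chr1-4_0145, described as pirin. Pirins are small conserved proteins of the cupin superfamily, and human pirin is a nuclear protein that binds iron. No other gene description in the table names a pirin. The genes next to each of the 6 along the chromosome were examined as well. DNA sequences of the strains were not analysed here.

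All 6 genes were lower in every G14 library than in every parent library at the same temperature, and the differences were unequal in size. At 30 °C the parent mean exceeded the G14 mean by between 4.77-fold for PAS_chr2-1_0353 and 37.1-fold for PAS_chr2-2_0482. At 37 °C it did so by between 10.3-fold for PAS_chr2-1_0353 and 57.2-fold for the pirin gene. Without G14_37 replicate 1 the largest ratio of the 6 at 37 °C was 82.3, for PAS_chr2-1_0748. The median log2 fold change of the 6 was -3.10 at 30 °C and -4.76 at 37 °C, against -0.03 and 0.05 over all transcripts. All 6 were past the call thresholds as downregulated in both comparisons, where 4.49% of all transcripts were at 30 °C and 14.3% at 37 °C. They were chosen for this, so nothing is read from that count or from the lack of overlap between the strains. The share of all transcripts without overlap is not given here. In these bulk RNA samples, fewer cells with the transcript and less RNA per cell cannot be told apart.

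**Figure D1:**
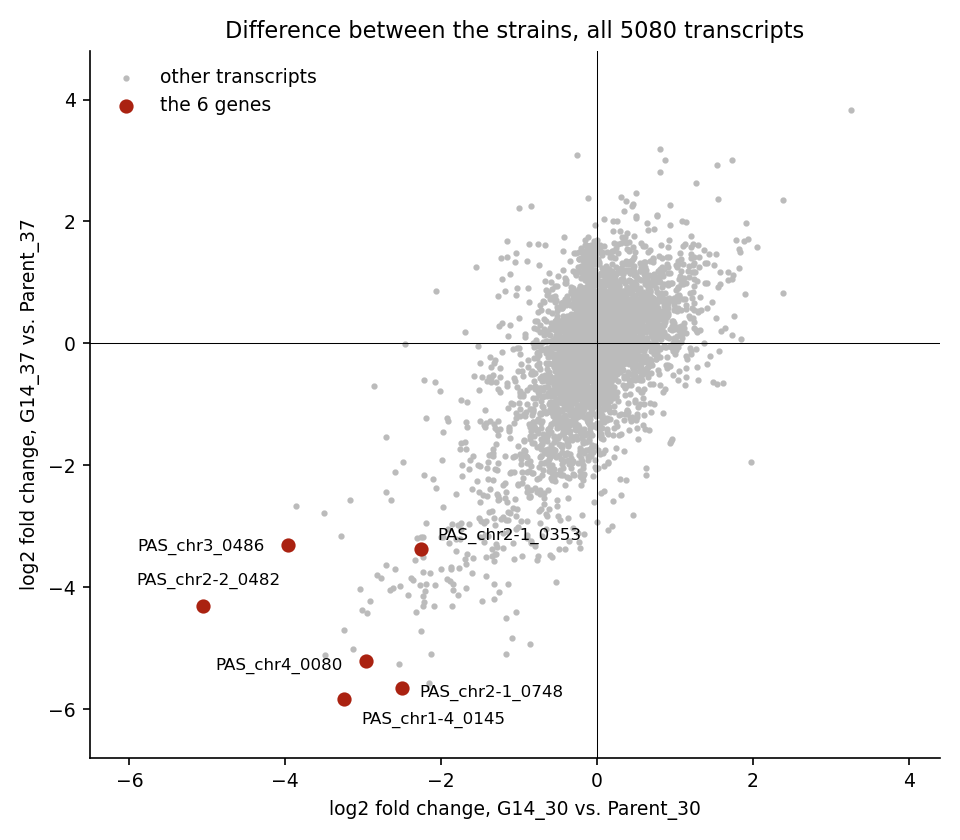
Difference between the strains for all 5080 transcripts, with the log2 fold change of G14_30 vs. Parent_30 on the x axis and of G14_37 vs. Parent_37 on the y axis. Red points are the 6 genes, which lie at -2.26 or below on the x axis and at -3.30 or below on the y axis. Grey points are the other transcripts, whose medians are -0.03 and 0.05.

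Other genes had falls of the same order. At 30 °C the 5 outside the list with the largest falls were PAS_chr4_0851 at -3.86, the phosphate transporter gene PAS_chr4_0337 at -3.50, the vacuolar protein sorting kinase gene PAS_chr3_0042 at -3.48, PAS_chr1-4_0111 at -3.28 and PAS_chr1-4_0129 at -3.25. At 37 °C they were an unannotated transcript of chromosome 2 at -5.58, the DHHC domain gene PAS_chr4_0567 at -5.26, again PAS_chr3_0042 at -5.11, PAS_chr2-1_0042 for an Hsp70 nucleotide exchange factor at -5.10, and the MAP kinase gene PAS_chr3_0895 at -5.09. Of the 6 listed genes, 3 were among the 10 largest falls in each comparison.

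PAS_chr4_0080 (gene identifier 8201167) lies on the minus strand of chromosome 4 from 157220 to 158398 and has 1179 bp. It had the third highest FPKM of all transcripts in Parent_30. Its FPKM in replicates 1, 2 and 3 was 11962, 11731 and 10187 in Parent_30 and 10873, 9805 and 10751 in Parent_37. In G14_30 it was 1464, 1730.4 and 1176, and in G14_37 it was 306, 372 and 195. The parent libraries were alike at both temperatures, G14_30 was lower, and G14_37 was lower still, with no overlap between these levels. The means were 11293 ± 965, 10476 ± 585, 1457 ± 277 and 291 ± 89.6 FPKM (SD, n = 3 each). The parent mean was 7.75-fold higher at 30 °C (log2 fold change -2.97, standard error 0.23) and 36.0-fold higher at 37 °C (-5.21). Its lowest count was still 4505 fragments, in G14_37 replicate 3, so counting error is small.

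PAS_chr2-2_0482 (8198658) lies on the minus strand of chromosome 2 from 1916362 to 1918881 and has 2520 bp. It was measured at 284, 231 and 247 FPKM in Parent_30 and at 221, 339 and 231 FPKM in Parent_37. The G14_30 libraries held 5.16, 9.26 and 6.11 FPKM, and the G14_37 libraries 48.3, 7.61 and 4.35 FPKM. All G14 libraries were far below the parent, but G14_37 replicate 1 stood 6.35-fold above the higher of the other G14_37 libraries. The group means were 254 ± 27.4, 264 ± 65.2, 6.84 ± 2.15 and 20.1 ± 24.5 FPKM (SD, n = 3 each). The parent was 37.1-fold higher at 30 °C, the largest fall of any transcript in that comparison (-5.05, standard error 0.63). At 37 °C the ratio was 13.1 with all libraries and 44.1 without G14_37 replicate 1, where the G14_37 mean became 5.98 FPKM.

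PAS_chr3_0486 (8199994) lies on the minus strand of chromosome 3 from 923950 to 925356 and has 1407 bp. Parent_30 had 518, 443 and 615 FPKM and Parent_37 had 372, 579 and 826 FPKM. G14_30 had 30.7, 36.0 and 30.5 FPKM and G14_37 had 68.9, 42.1 and 60.7 FPKM. Its parent levels overlapped between temperatures, while G14_37 lay wholly above G14_30 and wholly below the parent. The means of 525 ± 85.9, 592 ± 227, 32.4 ± 3.13 and 57.2 ± 13.8 FPKM (SD, n = 3 each) made the parent 16.2-fold higher at 30 °C and 10.4-fold higher at 37 °C. The log2 fold changes were -3.97 (standard error 0.27) and -3.30.

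The pirin gene PAS_chr1-4_0145 (8197865) lies on the minus strand of chromosome 1 from 1675093 to 1676079 and has 987 bp. It was at 1106, 988 and 918 FPKM in Parent_30 and at 4138, 4607 and 4079 FPKM in Parent_37. In G14_30 it was at 95.7, 119.7 and 101 FPKM, and in G14_37 at 65.9, 69.7 and 88.7 FPKM. Parent_37 was the highest group, and both G14 groups lay below both parent groups without overlap. The means were 1004 ± 95.0, 4275 ± 289, 106 ± 12.6 and 74.8 ± 12.2 FPKM (SD, n = 3 each). With a ratio of 9.51 at 30 °C and of 57.2 at 37 °C, it had the largest fall of any transcript at 37 °C (-5.83, standard error 0.14, against -3.24 at 30 °C). This place rests on G14_37 replicate 1. Without that library the ratio of the pirin gene at 37 °C was 54.0, below the 82.3 of PAS_chr2-1_0748.

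PAS_chr2-1_0748 (8198366) lies on the plus strand of chromosome 2 from 1423433 to 1424641 and has 1209 bp. It had 437, 361 and 341 FPKM in Parent_30 and 2383, 3733 and 2192 FPKM in Parent_37. It had 62.6, 71.3 and 64.8 FPKM in G14_30, and 126, 29.8 and 37.5 FPKM in G14_37. As for PAS_chr2-2_0482, G14_37 replicate 1 was the high library of its group, 3.36-fold above the next, and all G14 libraries remained under the parent. The means were 379.6 ± 50.9, 2769 ± 840.4, 66.2 ± 4.5 and 64.4 ± 53.4 FPKM (SD, n = 3 each). The parent was 5.73-fold higher at 30 °C (-2.50, standard error 0.43) and 43.0-fold higher at 37 °C (-5.66). Without G14_37 replicate 1 the ratio at 37 °C was 82.3, with a G14_37 mean of 33.7 FPKM.

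PAS_chr2-1_0353 (8199041) is the shortest of the 6 with 384 bp, on the plus strand of chromosome 2 from 655271 to 655654. It was the 12th most abundant transcript of Parent_30, at 6189, 6412 and 5564 FPKM, and reached 9169.8, 9402 and 9957 FPKM in Parent_37. G14_30 had 1258, 1415 and 1132 FPKM and G14_37 had 996, 886 and 885 FPKM. The 4 groups did not overlap with each other, and the order was Parent_37, Parent_30, G14_30 and G14_37. The means were 6055 ± 439, 9509.6 ± 405, 1269 ± 142 and 922 ± 63.6 FPKM (SD, n = 3 each). It fell least among the 6 at 30 °C, with a ratio of 4.77 (-2.26, standard error 0.14). At 37 °C its ratio was 10.3 (-3.37), close to the 10.4 (-3.30) of PAS_chr3_0486.

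**Figure D2:**
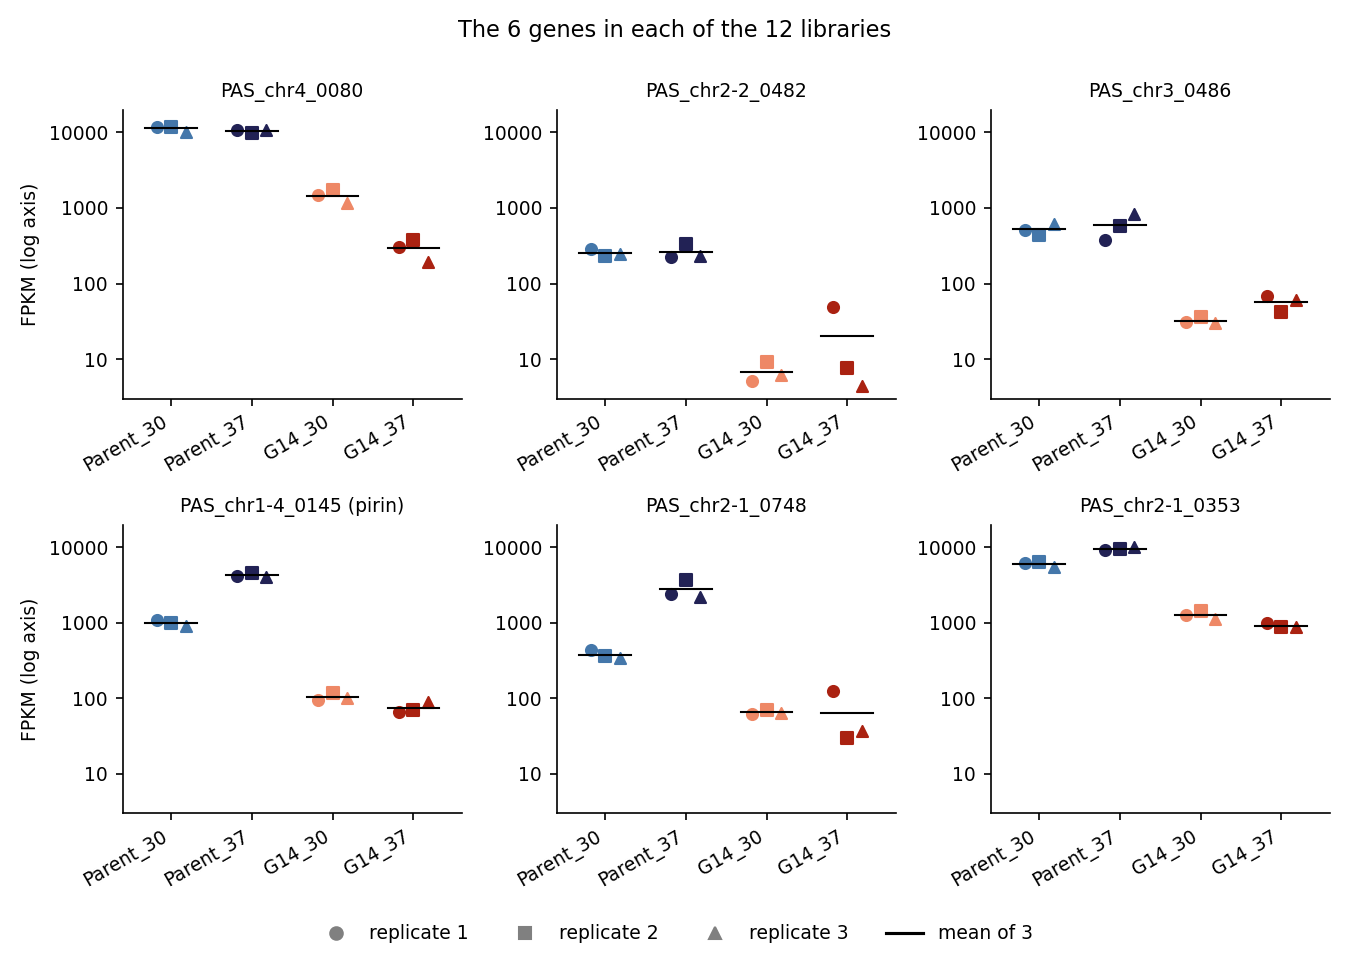
FPKM of the 6 genes in each of the 12 libraries, on a log axis that is the same in all panels, by strain and temperature on the x axis. Symbols are replicates and black lines are means of 3. In every panel the 6 G14 libraries lie below the 6 parent libraries. The pirin gene and PAS_chr2-1_0748 are higher in Parent_37 than in Parent_30, and the circle of G14_37 replicate 1 stands above its group for PAS_chr2-2_0482 (48.3 FPKM) and PAS_chr2-1_0748 (126 FPKM).

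The response to temperature within each strain was then compared. These contrasts are not the ones that chose the genes, but they use the same libraries. A large fall in G14 is more likely for a gene that is high in Parent_37 or low in G14_37. The calls and adjusted p of the 6 genes within either strain are thus not independent of the choice, and are given as a description. In comparison group Parent_37 vs. Parent_30, 2 of the 6 genes were called, both upregulated, where 14% of all transcripts were upregulated and 7.56% downregulated. The pirin gene rose 4.26-fold (log2 fold change 2.09, standard error 0.14, adjusted p 9.27e-07 by limma). PAS_chr2-1_0748 rose 7.29-fold (2.83, standard error 0.43, adjusted p 0.000202), and all libraries of Parent_37 lay above those of Parent_30 for both genes. PAS_chr2-1_0353 was also higher in all Parent_37 libraries, by 0.65 with an adjusted p of 0.00248, which is under the fold change threshold. The other 3 genes had changes of -0.11, 0.03 and 0.11 with overlapping groups and adjusted p of at least 0.714. The median over all transcripts was 0.04.

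In comparison group G14_37 vs. G14_30, 1 of the 6 genes was called, PAS_chr4_0080, which fell 5.01-fold (-2.35, standard error 0.23, adjusted p 0.000506 by limma). All its G14_37 libraries lay below its G14_30 libraries, and the change ranged from -2.55 to -2.09 over the alternative settings, with adjusted p between 0.000326 and 0.0392. Of all transcripts, 1.56% were downregulated and 2.22% upregulated in this comparison. Neither gene that rose with temperature in the parent was called here. The pirin gene changed by -0.50 (adjusted p 0.0266) and PAS_chr2-1_0353 by -0.46 (adjusted p 0.04), both without overlap and both under the fold change threshold. With all libraries scaled to the same sum, these values were -0.28 (adjusted p 0.161) and -0.24 (adjusted p 0.253). PAS_chr3_0486 had a log2 fold change of 0.78 with no overlap and an adjusted p of 0.0539. It was 0.99 (adjusted p 0.0207) with libraries scaled to the same sum and 0.79 (adjusted p 0.0301) by limma voom on recovered fragments, and the adjusted p reached 0.137 without G14_30 replicate 3. PAS_chr2-1_0748 changed by -0.34 (adjusted p 0.576), which became -0.96 (adjusted p 0.0129) without G14_37 replicate 1. PAS_chr2-2_0482 changed by 0.78 (adjusted p 0.365), which became -0.17 without that library. The difference between the strains in these responses repeats the contrasts that chose the genes and was not tested.

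The genes also shared features that the choice did not use directly. Of the 6, 5 were in the top 10% of transcripts by Parent_30 FPKM, and their median was 765 FPKM against 65.4 over all transcripts. A gene can only show a large fall from a level well above the lowest values, so this high level is not independent of the choice. Their median length of 1194 bp was near the 1191 bp of all transcripts, and 4 of the 6 lay on the minus strand, as 49.7% of all transcripts did. They were spread over the 4 chromosomes, with 3 on chromosome 2, and the one nearest to a chromosome end, PAS_chr4_0080, was separated from it by 77 transcripts of the table.

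Across the 12 libraries the profiles of the 6 genes were alike, and all of them share the strain difference by which they were chosen. Pearson's r of log2(FPKM + 1) between pairs ranged from 0.821 for PAS_chr4_0080 and PAS_chr2-1_0748 to 0.985 for the pirin gene and PAS_chr2-1_0353. By the same measure, the gene with the profile most like the pirin gene was PAS_chr2-1_0490, described as a transcriptional regulator of nitrogen catabolite repression (r 0.998), followed by PAS_chr3_0228 for the Hat1 histone acetyltransferase subunit (0.998). The mean level of PAS_chr2-1_0490 was 3799 FPKM in Parent_30 and 11053 FPKM in Parent_37, and 813 and 571 FPKM in G14 at 30 and 37 °C, the same order of groups as for the pirin gene. Nearest to PAS_chr2-1_0748 were the protein kinase gene PAS_chr4_0666 (0.991) and the RIM101 pathway gene PAS_chr2-1_0073 (0.990). PAS_chr2-2_0482 was most like PAS_chr4_0570 for a protein of the endoplasmic reticulum (0.970) and PAS_chr1-4_0513, the DNA repair gene *RAD50* (0.970). *RAD50* was also nearest to PAS_chr3_0486 (0.981), before the phosphatidylglycerolphosphate synthase gene PAS_chr1-3_0238 (0.969). PAS_chr4_0080 was most like its own neighbour PAS_chr4_0081, the riboflavin synthase gene (0.968), and then PAS_chr1-1_0240 (0.968). PAS_chr4_0081 was nearest to PAS_chr2-1_0353 as well (0.993), before PAS_chr2-1_0324 for a mitochondrial matrix chaperone (0.991). These values describe 12 libraries of 4 groups.

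Whether the genes around them changed too was answered with the 5 transcripts on each side of each gene, 60 in all. They were taken by position and not by their values, so their strain differences were tested. At 30 °C, 4 of the 60 neighbours were downregulated (6.67%, against 4.49% of all transcripts) and 2 upregulated (3.33%, against 2.87%). At 37 °C, 11 were downregulated (18.3%, against 14.3%) and 6 upregulated (10%, against 7.42%). The median log2 fold change of the neighbours was -0.08 at 30 °C and 0.09 at 37 °C. With 2 transcripts on each side, 24 in all, 3 were downregulated at 30 °C (12.5%) and 7 at 37 °C (29.2%), above the shares over all transcripts, so the share depended on the window. Of the 4 lowered at 30 °C in the wider window, 3 lay at 1 locus. Around PAS_chr4_0080, 3 of 10 neighbours were downregulated at 30 °C and 5 of 10 at 37 °C. Around the other 5 genes, 1 of 50 was downregulated at 30 °C and 6 of 50 (12%) at 37 °C.

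**Figure D3:**
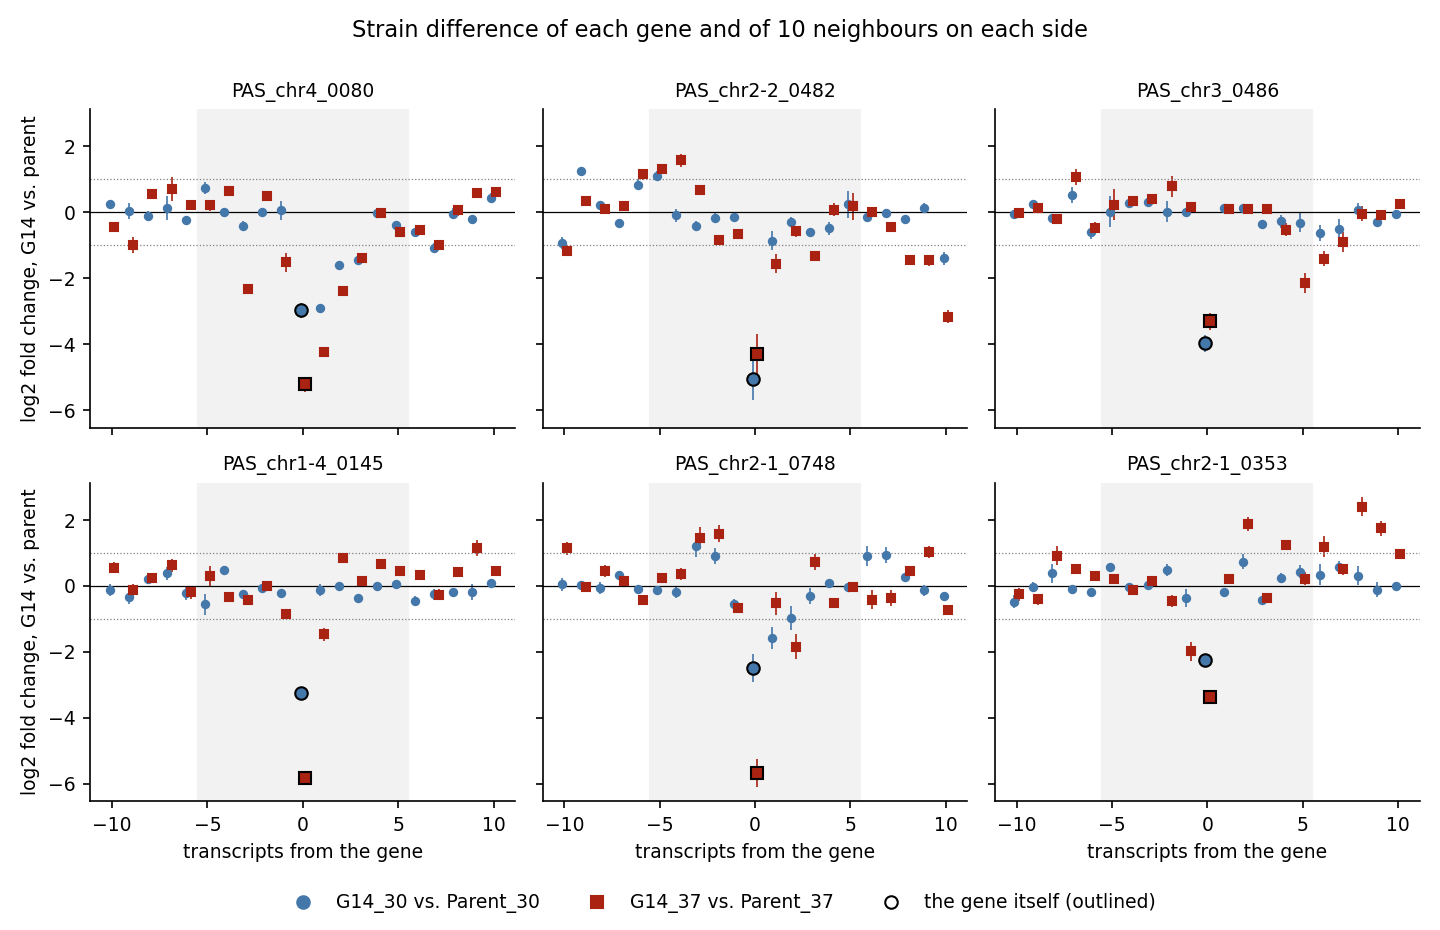
Log2 fold change between the strains, with standard error bars, of each of the 6 genes (outlined, at 0) and of the 10 transcripts on each side, by place in the order of transcripts along the chromosome. Blue circles are G14_30 vs. Parent_30, red squares are G14_37 vs. Parent_37, the shaded span holds the 5 neighbours counted in the text, and dotted lines mark changes of 1 and -1. Around PAS_chr4_0080 the next 3 transcripts on the right are also below -1 at both temperatures, while in the shaded spans of the other panels PAS_chr2-1_0749 (-1.58), beside PAS_chr2-1_0748, is the only neighbour below -1 at 30 °C.

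On chromosome 4, the 3 genes that follow PAS_chr4_0080 were downregulated together with it at both temperatures. The first is PAS_chr4_0081, the gene of riboflavin synthase, which makes vitamin B2, the precursor of the flavin cofactors. It is read away from PAS_chr4_0080 on the plus strand (158969 to 159725), with 570 bp between the gene models. It had 1360.3, 1332 and 1199 FPKM in Parent_30 and 1956, 1457 and 1903 FPKM in Parent_37. The G14_30 libraries had 158, 196 and 162 FPKM and the G14_37 libraries 90.4, 100.4 and 88.6 FPKM. Every G14 library was thus far below every parent library. The parent mean was 7.53-fold higher at 30 °C (log2 fold change -2.91, standard error 0.14, adjusted p 1.92e-07 by limma) and 19.0-fold higher at 37 °C (-4.23, adjusted p 1.52e-09). Like PAS_chr4_0080, it was lower at 37 than at 30 °C in G14 (-0.87, adjusted p 0.00385), whereas it was higher in the parent (0.44, adjusted p 0.0182), both under the fold change threshold.

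The second, PAS_chr4_0082, is described as essential for a late step of 60S ribosomal subunit assembly and lies on the minus strand from 159759 to 161039. Parent_30 held 429, 423 and 394 FPKM and Parent_37 held 546, 488 and 599.8 FPKM, against 135, 125 and 148 FPKM in G14_30 and 89.7, 104 and 118 FPKM in G14_37. The strains did not overlap, and the parent was 3.05-fold higher at 30 °C (-1.60, adjusted p 6.59e-06 by limma) and 5.25-fold higher at 37 °C (-2.38, adjusted p 5.5e-08). The third, PAS_chr4_0083, encodes a splicing factor of the Cef1p subcomplex, on the plus strand from 161176 to 162534. Parent_30 held 75.2, 67.7 and 66.3 FPKM and Parent_37 held 48.2, 53.6 and 54.5 FPKM, against 24.2, 25.3 and 26.1 FPKM in G14_30 and 16.9, 16.5 and 26.3 FPKM in G14_37. Again the strains did not overlap, with ratios of 2.77 (-1.43, adjusted p 5.25e-05) and 2.62 (-1.37, adjusted p 2.13e-05). From PAS_chr4_0080 to PAS_chr4_0083 the log2 fold changes at 30 °C were -2.97, -2.91, -1.60 and -1.43 (standard errors 0.23, 0.14, 0.12 and 0.15). The values of PAS_chr4_0080 and PAS_chr4_0081 were close, as were those of PAS_chr4_0082 and PAS_chr4_0083. Differences between the genes were not tested.

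Beyond them lies PAS_chr4_0084, the gene of the catalytic subunit of the NuA4 histone acetyltransferase, from 162650 to 164044. Its levels lay between 42.7 and 50.2 FPKM in all 12 libraries, with strain differences of -0.02 at both temperatures and adjusted p of 0.883 and 0.805. The next gene, PAS_chr4_0085, had -0.38 (adjusted p 0.0241) at 30 °C and -0.59 (adjusted p 0.00091) at 37 °C. Further out and not among the 5 counted, PAS_chr4_0918 had -0.60 (adjusted p 0.00142) and -0.54 (adjusted p 0.000997). The acyltransferase gene PAS_chr4_0086 was downregulated at 30 °C (-1.08, adjusted p 0.000525) and had -0.99 (adjusted p 0.000336) at 37 °C. On the other side, PAS_chr4_0079 faces PAS_chr4_0080 with 42 bp between them. Its strain difference was 0.06 (adjusted p 0.902) at 30 °C, and it was downregulated at 37 °C (-1.51, adjusted p 0.00102), where its mean was 70.2 FPKM in the parent and 25.0 FPKM in G14. Further out, PAS_chr4_0078 had 0.02 at 30 °C and 0.51 at 37 °C. PAS_chr4_0077 had -0.41 (adjusted p 0.0856) at 30 °C and was downregulated at 37 °C (-2.32, adjusted p 6.22e-07). At 30 °C the adjacent lowered genes from PAS_chr4_0080 on thus lay between genes with differences of 0.06 and -0.02.

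**Figure D4:**
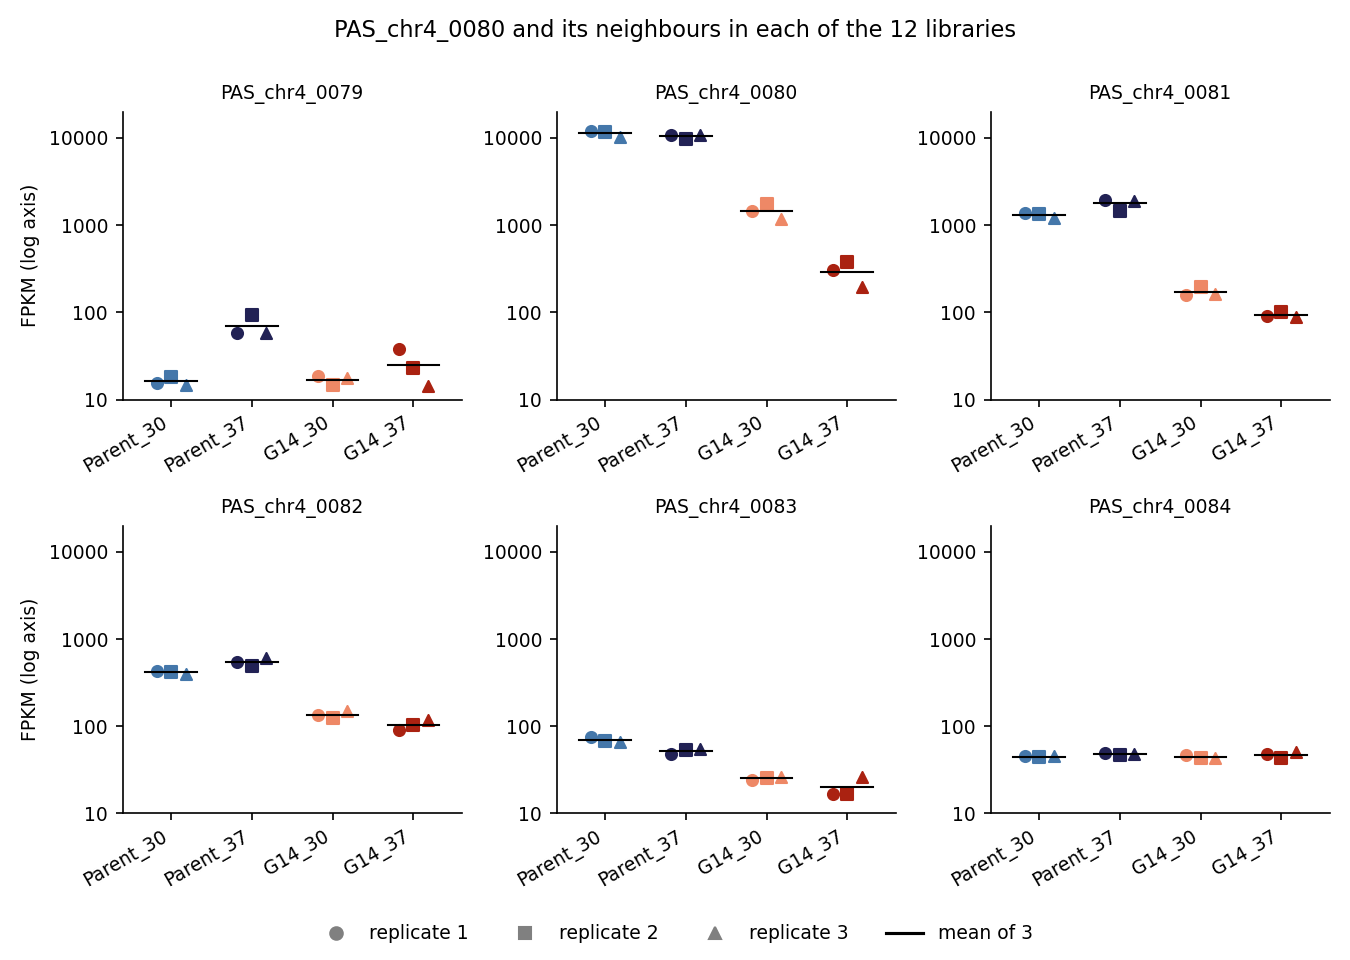
FPKM of PAS_chr4_0080 and of the neighbours PAS_chr4_0079 and PAS_chr4_0081 to PAS_chr4_0084 in each of the 12 libraries, on a log axis that is the same in all panels, by strain and temperature on the x axis. Symbols are replicates and black lines are means of 3. From PAS_chr4_0080 to PAS_chr4_0083 all G14 libraries lie below all parent libraries, with ratios at 30 °C of 7.75, 7.53, 3.05 and 2.77, while those of PAS_chr4_0084 lie between 42.7 and 50.2 FPKM in both strains.

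Around PAS_chr2-2_0482 the nearest genes lay 1885 bp away, PAS_chr2-2_0254 for a DNA repair methyltransferase, and 3654 bp away, PAS_chr2-2_0252 for alkaline dihydroceramidase, an enzyme of sphingolipid metabolism. Their strain differences at 30 °C were -0.14 (adjusted p 0.232) and -0.85 (adjusted p 0.0473), far from the -5.05 of the gene between them. At 37 °C PAS_chr2-2_0252 was downregulated (-1.56, adjusted p 0.000844), as was PAS_chr2-2_0250 for a subunit of the tRNA splicing endonuclease (-1.33, adjusted p 1.31e-07). On the other side, PAS_chr2-2_0258 was upregulated at both temperatures (1.10, adjusted p 0.000398, and 1.31, adjusted p 4.02e-05), with 0.96 at 30 °C without Parent_30 replicate 1 and 0.93 with a pseudocount of 10, both under the fold change threshold. PAS_chr2-2_0257 for ribosomal protein S20 was upregulated at 37 °C (1.58, adjusted p 4.96e-05) and had -0.09 at 30 °C.

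The genes on either side of PAS_chr3_0486 had small strain differences. Its nearest genes were PAS_chr3_0485, of the cytoplasm to vacuole targeting pathway, with 0.00 (adjusted p 0.985) at 30 °C and 0.15 (0.354) at 37 °C, and PAS_chr3_0488, of a bud protein, with 0.12 (0.369) and 0.10 (0.391). At 30 °C no neighbour was called by limma or by limma voom on recovered fragments, and 3 of 10 had an unadjusted p under 0.05, 1 of them lower. At 37 °C only the outermost, PAS_chr3_0492, was called (-2.14, adjusted p 0.000127). For this gene the fall was as large as 16.2-fold between a pair of genes whose means differed little between the strains.

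The surroundings of the pirin gene were similar at 30 °C, where none of its 10 neighbours was called by either tool, and 3 had an unadjusted p under 0.05, 2 of them lower. PAS_chr1-4_0656, which faces it with 14 bp between the gene models, had -0.22 (adjusted p 0.197) at 30 °C and -0.86 (adjusted p 0.000107) at 37 °C. On the other side, PAS_chr1-4_0146, on the same strand 304 bp away, had -0.11 (adjusted p 0.7) at 30 °C and was downregulated at 37 °C (-1.47, adjusted p 7.13e-05). The mean of PAS_chr1-4_0146 rose from 53.5 FPKM in Parent_30 to 131 FPKM in Parent_37 and was 49.4 and 48.1 FPKM in G14.

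Beside PAS_chr2-1_0748 lies PAS_chr2-1_0749, the gene of allantoicase, which acts in the breakdown of allantoin as a nitrogen source. The 2 genes face each other with 111 bp between them. Allantoicase had 248, 208 and 181 FPKM in Parent_30 and 328, 358 and 328 FPKM in Parent_37. G14_30 had 84.5, 72.3 and 56.1 FPKM and G14_37 had 329, 329 and 118 FPKM. It was downregulated in G14 at 30 °C without overlap (-1.58, standard error 0.33, adjusted p 0.00501 by limma). At 37 °C it was not called (-0.53, adjusted p 0.198), and 2 of the 3 G14 libraries were at the level of the parent, while PAS_chr2-1_0748 itself fell further. The next gene, PAS_chr2-1_0750, had -0.97 (adjusted p 0.0774) at 30 °C and was downregulated at 37 °C (-1.84, adjusted p 0.00162). On the other side, PAS_chr2-1_0747 had -0.53 (adjusted p 0.0126) and -0.68 (adjusted p 0.00134), under the fold change threshold. Beyond it, PAS_chr2-1_0746 was upregulated at 37 °C (1.58, adjusted p 0.000307), with 0.91 at 30 °C (adjusted p 0.0202). PAS_chr2-1_0882 was upregulated at 30 °C (1.21, adjusted p 0.0218) and at 37 °C (1.46, adjusted p 0.00373). At 30 °C the adjusted p was 0.0537 to 0.0778 when G14_30 replicate 1 or 2 or Parent_30 replicate 1, 2 or 3 was left out, so that call was lost without any of these 5 libraries. Without G14_37 replicate 1, where PAS_chr2-1_0882 had 664 FPKM against 301 and 187 in the other replicates, the value at 37 °C was 0.96.

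For PAS_chr2-1_0353, the facing gene PAS_chr2-1_0354 of a ubiquitin ligase, 279 bp away, had -0.19 (adjusted p 0.194) at 30 °C and 0.21 (adjusted p 0.0942) at 37 °C. On the other side, 1408 bp away, PAS_chr2-1_0352 had -0.36 (adjusted p 0.374) and was downregulated at 37 °C (-1.98, adjusted p 0.000121), from a mean of 55.1 FPKM in the parent to 12.9 FPKM in G14. At 30 °C no neighbour was called by either tool, and 5 of 10 had an unadjusted p under 0.05, 1 of them lower. At 37 °C PAS_chr2-1_0355 (1.88, adjusted p 3.14e-05) and PAS_chr2-1_0357 for a casein kinase I (1.25, adjusted p 2.32e-05) were upregulated. The neighbours of this gene thus moved in both directions at 37 °C.

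Taking the nearest transcript on each side of each gene alone, 2 of 12 were called at 30 °C, PAS_chr4_0081 and PAS_chr2-1_0749, and 5 of 12 at 37 °C, all of them downregulated. These are shares of 16.7% and 41.7%, against 4.49% and 14.3% of all transcripts. The median log2 fold change of the 12 was -0.20 at 30 °C and -0.77 at 37 °C, against -0.03 and 0.05 over all transcripts. The sources used here do not say whether the counting used the strand of the reads, so reads of facing genes whose ends overlap could not be told apart. Neighbours are those listed in the table, in which some locus numbers between them do not occur.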

How the data were processed

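RNA was sequenced with paired reads. The authors deposited FPKM per transcript, after mapping to the genome and gene models that PICHIAGENOME holds for *K. phaffii*. The submitters' processing notes name CASAVA, HISAT2 2.0.5 and featureCounts 1.5.0-p3, and the assembly is not given in the sources used here. Coordinates are those of the deposited table. Fragments were recovered, since the product of FPKM and length came out as whole steps for 100% of transcripts in each library (tolerance 0.05), and 1 fragment on 1 kb equals 0.042 to 0.082 FPKM. Median-of-ratios factors did not differ between libraries, so the deposited values already include such a scaling.

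Values were fitted as log2(FPKM + 1), with a pseudocount of 1, in R 4.3.3 by limma 3.58.1, whose prior followed the trend with expression. The study's own comparison modelled counts, which were not used here. Other values came from Python 3.11.15 and pandas 2.3.3. On simulated data of 5080 transcripts for G14_30 vs. Parent_30, 100% of 3-fold and 8-fold changes were recovered with 0 false calls. For Parent_37 vs. Parent_30, 99% of 3-fold and 100% of 8-fold changes were recovered, also with 0 false calls. The simulated counts had the same setting of spread for every gene and library, and no comparison with G14_37 was simulated. The rate of false calls under the spread of the real libraries was not tested.

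Named are the 6 genes, the nearest transcript on each side, called neighbours among 5 on each side, the 2 transcripts most alike for each gene, and up to 5 larger falls in each comparison. PAS_chr4_0078, PAS_chr4_0084, PAS_chr4_0085, PAS_chr4_0918, PAS_chr4_0086, PAS_chr2-2_0256, PAS_chr2-1_0751 and the flavin genes were added after their values were seen. The 6 genes and these lists were chosen with earlier results of these data known. The separate list of unannotated transcripts holds no measurements and was not used.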

Additional observations from a re-analysis of the deposited data

Results flagged for a closer look

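For 2 of the 6 genes, all 37 °C libraries lay above all 30 °C libraries in the parent and below them in G14. The share of all transcripts with this pattern is not given here, so nothing is read from the count. The log2 fold changes in G14 were -0.50 for the pirin gene and -0.46 for PAS_chr2-1_0353, under the fold change threshold. With all libraries scaled to the same sum they were -0.28 (adjusted p 0.161 by limma) and -0.24 (adjusted p 0.253). The pirin gene PAS_chr1-4_0145 was higher at 37 °C in the parent and lower at 37 °C in G14, and its log2 response in G14 minus that in the parent was -2.59. For PAS_chr2-1_0353 this difference was -1.11. The difference was not tested for either gene, because it repeats the strain contrasts for which the genes were chosen.

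Of the 60 neighbours, 11 (18.3%) had a strain difference that changed with temperature by more than 1 at an adjusted p under 0.05 in the limma model, against 15.4% of all transcripts. By adjusted p alone they were 24 (40%, against 35.4%). The values are the log2 fold change of G14 against the parent at 37 °C minus that at 30 °C. It became more negative for PAS_chr4_0077 (-1.91, adjusted p 0.00018), PAS_chr4_0079 (-1.57, adjusted p 0.0125) and the riboflavin synthase gene PAS_chr4_0081 (-1.31, adjusted p 0.000653), all 3 among the neighbours of PAS_chr4_0080 but not all adjacent to it. The same held for PAS_chr3_0492 (-1.83, adjusted p 0.00718), PAS_chr2-1_0352 (-1.62, adjusted p 0.00866) and PAS_chr1-4_0146 (-1.35, adjusted p 0.00325). It became more positive for the ribosomal protein S20 gene PAS_chr2-2_0257 (1.66, adjusted p 0.00116), PAS_chr2-1_0355 (1.15, adjusted p 0.0149), PAS_chr2-2_0256 (1.09, adjusted p 0.00104), the mitochondrial ATP synthase subunit gene PAS_chr2-1_0751 (1.05, adjusted p 0.0358) and the casein kinase gene PAS_chr2-1_0357 (1.0, adjusted p 0.00306).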

How the results depend on the processing

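The fall of each of the 6 genes in G14 kept its direction under every alternative run. The genes were chosen for this fall and the strains did not overlap, so nothing is read from that. For PAS_chr2-2_0482 at 37 °C the log2 fold change ranged from -5.26 to -3.45. With adjusted p alone as the threshold, 3 of the 6 genes rather than 1 were called in G14_37 vs. G14_30 (background 13.2% lower and 12.1% higher). By that threshold, the neighbours at 30 °C held 11 lower rather than 4 and 9 higher rather than 2 (background 13.7% and 14.9%), and at 37 °C 22 lower rather than 11 and 15 higher rather than 6 (28.1% and 29.4%). With 2 neighbours on each side (24 transcripts), 3 were lower (12.5%) and 0 higher at 30 °C, and 7 were lower (29.2%) and 2 higher (8.33%) at 37 °C. With 10 on each side (120 transcripts), 14 were higher at 37 °C. A pseudocount of 10 left 1 neighbour higher at 30 °C.

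Leaving out 1 library gave 0 to 3 neighbours higher and in each case 4 lower at 30 °C, and 5 to 7 higher and 11 to 12 lower at 37 °C. The 2 higher at 30 °C, PAS_chr2-1_0882 and PAS_chr2-2_0258, were both lost without Parent_30 replicate 1 (adjusted p 0.0537 and a log2 fold change of 0.96). The first was also lost without G14_30 replicate 1 or 2 or Parent_30 replicate 2 or 3, with adjusted p up to 0.0778. Over 1260 alternatives for 60 single values, 1250 kept their call or their lack of one, 8 lost a call and 2 gained one. Values with a call in either run changed sign in 0 cases. Some values without a call did change sign, such as that of PAS_chr2-2_0482 in G14_37 vs. G14_30 without G14_37 replicate 1 (0.78 to -0.17). Scaling every library to the same sum raised the median over all transcripts to 0.15 at 30 °C and 0.34 at 37 °C. Whether the same replicate number in 2 groups pairs libraries is not known. Correlations of deviations between same-numbered libraries ranged from -0.22 to 0.67. For replicates 1, 2 and 3 they were 0.61, 0.01 and 0.67 in G14_30 vs. Parent_30, and -0.02, 0.45 and 0.41 in G14_37 vs. G14_30. A shared replicate effect is thus not excluded. With the replicate number as a block, 1 and 2 of the 6 genes were called in G14 and in the parent, as without it. The neighbours called lower and higher were then 4 and 2 at 30 °C and 11 and 6 at 37 °C. No filter on low values made no change, since no transcript had a mean under 1 FPKM. Genes related by protein sequence and promoter motifs were not analysed here, and no second pirin gene is described in the table. PAS_chr2-2_0482 had the lowest count, 187 fragments in G14_30 replicate 1.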

Other observations

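The riboflavin synthase gene PAS_chr4_0081, next to PAS_chr4_0080, was compared with genes whose descriptions held chosen phrases for steps of riboflavin or flavin cofactor synthesis. Genes of these steps that are described in other words may be missing. The list was made after the values of PAS_chr4_0081 had been seen, so the values are a description with no test. Riboflavin synthase itself had a log2 fold change of -2.91 at 30 °C and -4.23 at 37 °C. The lumazine synthase gene PAS_chr3_1037, for the enzyme that supplies its substrate, had 0.34 and 0.37, with means of 245 FPKM in Parent_30 and 311 FPKM in G14_30. GTP cyclohydrolase II (PAS_chr2-1_0736), the first enzyme of the pathway, had -0.31 and 0.29, and the DRAP deaminase gene PAS_chr1-3_0239 had -0.05 and -0.42. The dihydroxybutanone phosphate synthase gene PAS_chr3_0167 had -0.18 and -0.24. FAD synthetase (PAS_chr1-3_0240), which acts after riboflavin, had -0.71 and -1.31, from 132 FPKM in Parent_37 to 54.4 FPKM in G14_37. The fall of riboflavin synthase was thus the largest of these 6 genes at both temperatures.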
